A study of Mus musculus with 6 samples.

Results

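Forkhead genes encode transcription factors that share a winged-helix DNA-binding domain, the forkhead domain. The 7 members described here, Foxf1, Foxf2, Foxl1, Foxc1, Foxc2, Foxd1 and Foxd2, were chosen by gene symbol from the 49492 gene rows of the deposited table, and all 7 were present and passed the filter on low counts. In the embryonic face and palate these genes are known from the neural-crest-derived mesenchyme, the loose tissue that fills the palatal shelves. Foxf1, Foxf2 and Foxl1 are known as Hedgehog-responsive genes of mesenchyme that lies next to an epithelium making Sonic hedgehog, and loss of Foxf2 causes cleft palate in mice. Foxc1 and Foxc2 act in cranial mesenchyme, somites and vessels, and Foxd1 and Foxd2 mark mesenchyme of the face and stroma of the kidney.

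RNA was measured by poly(A) RNA-seq in the palatal shelves, whose fusion separates mouth from nose, of C57BL mice at embryonic stage E14.5. In genotype, the 3 control libraries carried PRMT1 fl/fl, the loxP-flanked allele of the arginine methyltransferase gene Prmt1, and the 3 deletion libraries carried Wnt1-Cre; PRMT1 fl/fl. Both groups thus share the floxed alleles, and no library carried Cre without the deletion. Wnt1-Cre is known to act in the neural crest lineage, which gives rise to most of the shelf mesenchyme and not to its epithelium, and recombination by cell type was not tested here. The series asks which genes change when Prmt1 is lost there. Libraries go by the numbers in their column names, which no label explains (212, 213 and 220 for control, 208, 211 and 221 for deletion). Whether each library is a different embryo is not in the labels, and the p-values here cover only spread among these libraries.

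Total estimated counts ranged from 44919889 to 50022829 per library. Prmt1 was lower in each deletion library (200.9 to 217.3 CPM, the count relative to the TMM-scaled library total) than in each control (246.3 to 257.9 CPM). Controls 212 and 213 had 15.48 and 15.96 CPM of Xist against 3384 to 4487 CPM in the remaining 4 libraries, so control 220 was the only control of the same sex as the deletion libraries. Libraries 220 and 221 stood apart from the other 4 on the second principal component of log2 CPM (20.2% of variance). The mesenchymal markers Prrx1, Pdgfra and Osr2 were present in all 6 libraries. In bulk tissue, more cells of a type and more RNA per cell cannot be told apart.

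The members are close relatives, which bears on how far reads can be assigned to each. The stretch of 60 bases that was best matched without gaps across the 7 transcripts lies in the part of the forkhead box that encodes the DNA-contacting helix. It is printed below for 6 members from the GENCODE M21 transcripts, 5′ to 3′, in lower case, with capitals where a base differs from Foxf1.
Foxf1: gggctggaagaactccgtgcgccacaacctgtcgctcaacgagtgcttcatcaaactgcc
Foxf2: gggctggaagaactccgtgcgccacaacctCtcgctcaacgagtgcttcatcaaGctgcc
Foxc1: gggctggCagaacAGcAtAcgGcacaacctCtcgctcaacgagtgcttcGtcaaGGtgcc
Foxc2: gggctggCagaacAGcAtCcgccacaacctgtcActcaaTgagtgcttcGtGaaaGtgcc
Foxd1: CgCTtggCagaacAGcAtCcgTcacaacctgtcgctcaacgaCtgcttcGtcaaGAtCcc
Foxd2: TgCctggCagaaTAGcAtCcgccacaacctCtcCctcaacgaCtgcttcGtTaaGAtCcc
Foxf2 differed from Foxf1 at 2 of these bases, Foxc1 and Foxc2 at 10 each, Foxd1 at 14 and Foxd2 at 16. Over the whole transcripts the longest identical run was 53 bases for Foxc1 and Foxc2, 47 for Foxd1 and Foxd2, and 41 for Foxf1 and Foxf2. Of all stretches of 50 bases in a member, 4 were shared between Foxc1 (5795 stretches) and Foxc2 (2676 stretches). No other pair of members shared any. Foxl1 shared 0.87% of its stretches with other genes, and Foxf1 and Foxf2 shared 49 stretches each, 2.07% and 2.12%, with annotated microRNA genes on their opposite strand. Most of each transcript was therefore distinct at that length, and the read length is not given in the sources used here.

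By position (mm10) the members form a pair of clusters and a pair of single genes. Foxf1 (chromosome 8, 121084386 to 121088144), Foxc2 (121116171 to 121118895) and Foxl1 (121127940 to 121130644) lie within 43.6 kb of each other by their starts, all on the plus strand. Foxf2 (chromosome 13, 31625816 to 31631403) and Foxc1 (31806633 to 31812476) lie 180.8 kb apart, also on the plus strand. Foxd1 is on chromosome 13 (98354242 to 98359305, plus strand) and Foxd2 on chromosome 4 (114906282 to 114908873, minus strand). Foxf1 and Foxf2 have 2 exons each in GENCODE M21, and the other 5 have 1.

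Of the 7 members, 4 rose in the deletion libraries and 0 fell: Foxc1, Foxc2, Foxd1 and Foxd2, by 1.42-fold to 1.78-fold. Foxf1, Foxf2 and Foxl1 did not pass. Among all 19284 genes tested with edgeR's quasi-likelihood test at a Benjamini-Hochberg adjusted p of 0.05, 7.01% passed, 3.65% higher and 3.37% lower. Over the 7 members the median log2 fold change came to 0.50, and it was -0.0001 over all genes tested. The members were chosen with earlier results of these data known, so setting them beside all genes is a description and not a test. All 4 that rose had groups that did not overlap, as had 14.1% of tested genes in the upward direction (27.5% in either).

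**Figure D1:**
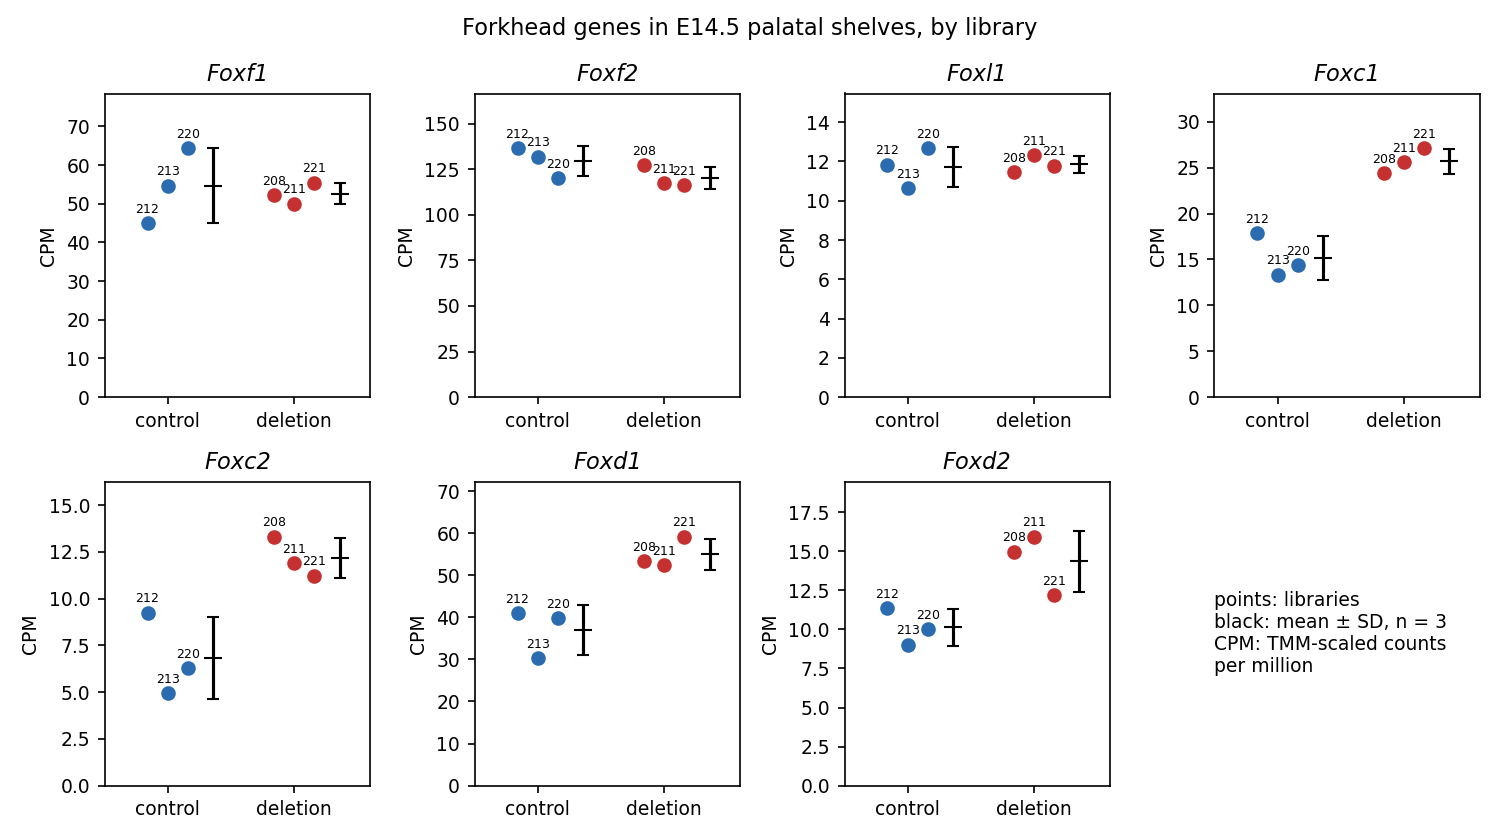
CPM (TMM-scaled, axes from 0) of the 7 forkhead genes; points are libraries with their numbers, blue for control and red for deletion, and black bars are mean and SD of 3 libraries. The groups are separate for Foxc1, Foxc2, Foxd1 and Foxd2 and overlap for Foxf1, Foxf2 and Foxl1.

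Foxc1, the factor mutated in Axenfeld-Rieger syndrome and needed for skull and eye development, stood at 17.8, 13.3 and 14.4 CPM in controls 212, 213 and 220, an order of libraries kept below. Deletion 208, 211 and 221, also in this order, gave 24.4, 25.6 and 27.1 CPM. Every deletion library was above every control, and control 212 was the highest of the controls. The means were 15.2 ± 2.36 and 25.7 ± 1.36 CPM (SD, n = 3 in each group here and below). The log2 fold change was 0.76 ± 0.11 (SE), with an adjusted p of 0.00269 in edgeR, a 1.69-fold rise with a 95% interval of 1.44 to 1.99. It was the call of smallest p among the members. With the sex covariate it did not pass, although the fold change was larger (0.84, edgeR adjusted p = 0.0583).

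Foxc2, the paralog of Foxc1, which is known for its part in lymphatic valves and vertebral development, stood at 9.26, 4.95 and 6.27 CPM without and 13.3, 11.9 and 11.2 CPM with the deletion. Control 212 was again the highest control. The means were 6.83 ± 2.21 and 12.2 ± 1.07 CPM, or 0.83 ± 0.20 (SE) as a log2 fold change, with an adjusted p of 0.0402 in edgeR and a rise of 1.78-fold (95% interval 1.30 to 2.44). This was the largest fold among the members and the least precise, with 245 to 665 counts per library. It passed without control 212 (log2 fold change 1.12) and in none of the other 5 fits that left out 1 library. Without 213, 220, 208, 211 or 221 the log2 fold change was 0.64 to 0.88 and the edgeR adjusted p 0.0665 to 0.147. With the sex covariate the fold change was 0.95 (log2) and the edgeR adjusted p = 0.241, and without controls 212 and 213 together they were 0.96 and 0.0765.

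Foxd1, which marks stromal progenitors of the kidney and mesenchyme of the face, stood at 40.9, 30.2 and 39.8 CPM without and 53.3, 52.3 and 59.1 CPM with the deletion. The lowest deletion library was above the highest control. The means were 37.0 ± 5.87 and 54.9 ± 3.67 CPM, or 0.57 ± 0.11 (SE) as a log2 fold change, with an adjusted p of 0.0150 in edgeR and a rise of 1.49-fold (95% interval 1.25 to 1.76). It missed the threshold without deletion 208 (0.59, edgeR adjusted p = 0.0571), without controls 212 and 213 together (0.47, edgeR adjusted p = 0.118) and with the sex covariate (0.47, edgeR adjusted p = 0.247).

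Foxd2, a factor of kidney and facial mesenchyme, stood at 11.4, 9.03 and 10.01 CPM without and 14.96, 15.9 and 12.2 CPM with the deletion. The groups did not overlap, but control 212 and deletion 221 were close, at 11.35 and 12.19 CPM. The means were 10.1 ± 1.16 and 14.4 ± 1.94 CPM, or 0.50 ± 0.13 (SE) as a log2 fold change, with an adjusted p of 0.0382 in edgeR and a rise of 1.42-fold (95% interval 1.17 to 1.72). The call was lost without 213, 220, 208 or 211 (log2 fold change 0.42 to 0.50, edgeR adjusted p = 0.077 to 0.178), with limma voom (adjusted p = 0.0573), without controls 212 and 213 together (0.52, edgeR adjusted p = 0.292) and with the sex covariate (0.52, edgeR adjusted p = 0.258).

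Foxf2, the member whose loss causes cleft palate in mice, stood at 136.5, 131.8 and 120.1 CPM without and 127.1, 117.3 and 116.3 CPM with the deletion. The groups overlapped, with deletion 208 above control 220. The means were 129.5 ± 8.45 and 120.2 ± 5.98 CPM, or -0.11 ± 0.06 (SE) as a log2 fold change, with an adjusted p of 0.340 in edgeR. The 95% interval ran from 0.846-fold to 1.02-fold.

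Foxf1, needed for the mesenchyme of lung and gut and acting with Foxf2 in the palate, stood at 44.9, 54.6 and 64.3 CPM without and 52.2, 50.02 and 55.4 CPM with the deletion. All 3 deletion libraries lay inside the range of the controls. The log2 fold change was -0.06 ± 0.12 (SE), with an adjusted p of 0.838 in edgeR and a 95% interval of 0.799-fold to 1.16-fold. Against control 220 alone, the highest control, it was -0.29 (edgeR adjusted p = 0.246).

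Foxl1, a mesenchymal factor known best from the stroma beneath the gut epithelium, had the log2 fold change nearest to 0. It stood at 11.8, 10.7 and 12.7 CPM without and 11.5, 12.3 and 11.8 CPM with the deletion, again inside the range of the controls. The log2 fold change was 0.02 ± 0.10 (SE), with an adjusted p of 0.951 in edgeR and a 95% interval of 0.864-fold to 1.18-fold.

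The 4 that rose also shared the order of the controls: 212 was highest, 220 next and 213 lowest for Foxc1, Foxc2, Foxd1 and Foxd2. Other genes had this order too, such as the muscle marker Tnnt1 (23.96, 19.95 and 23.04 CPM in 212, 213 and 220). How many of all tested genes share it was not counted, and Foxl1, which did not pass, was also lowest in 213. For Foxf1, control 212 was the lowest and control 220 the highest. The root mean square difference of log2 CPM, each gene centred on its mean over 6 libraries, was smallest for Foxc1 and Foxd1 (0.13) and largest for Foxf1 and Foxc2 (0.57), neighbours on chromosome 8. These distances are descriptions over the same 6 libraries that gave the fold changes.

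Compared per length, as CPM per kilobase of exon (RPKM, with GENCODE M21 exons), Foxf2 was the most abundant of the members in controls at 54.8 ± 3.57 RPKM. Foxf1 followed at 22.6 ± 4.02 and Foxd1 at 7.30 ± 1.16 RPKM, and none of these ranges overlapped its neighbour's. Foxl1 (4.33 ± 0.376) and Foxd2 (3.91 ± 0.448) overlapped in range. So did Foxc1 (2.60 ± 0.405) and Foxc2 (2.51 ± 0.81 RPKM), the lowest pair. In the deletion libraries Foxf2 (50.9 ± 2.53), Foxf1 (21.8 ± 1.12) and Foxd1 (10.8 ± 0.724) kept the first 3 places, and the other 4 lay between 4.38 and 5.54 RPKM. Foxf2 also had the highest control level per length of all 34 forkhead genes tested.

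In each cluster, 1 member passed the test and its cluster neighbours among the members did not. The table's totals do not enter the ratio of counts of 2 genes in the same library, so ratios were taken, 6 in all and chosen after the values were seen, each with an exact two-sided permutation test whose smallest p for 3 against 3 is 0.1. Foxc1 stood at 0.131, 0.101 and 0.119 counts per count of Foxf2 in controls 212, 213 and 220 and at 0.192, 0.218 and 0.233 in deletion 208, 211 and 221. The groups were separate, with a log2 difference of 0.88 ± 0.14 (SE; exact permutation p = 0.1, 0.3 adjusted over the 6 ratios). Foxc2 per count of Foxl1 was 0.782, 0.465 and 0.495 in controls and 1.16, 0.966 and 0.953 in deletion libraries, also separate (log2 difference 0.86 ± 0.25, exact permutation p = 0.1). Foxc2 per count of Foxf1 was 0.206, 0.0906 and 0.0975 in controls and 0.255, 0.238 and 0.203 in deletion libraries (log2 difference 0.92 ± 0.39). There control 212 reached the level of deletion 221, and the exact permutation p was 0.2. Foxl1 per count of Foxf1 was 0.219 ± 0.0391 in controls and 0.226 ± 0.0177 in deletion libraries, with a log2 difference of 0.06 ± 0.16 (exact permutation p = 0.6).

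**Figure D2:**
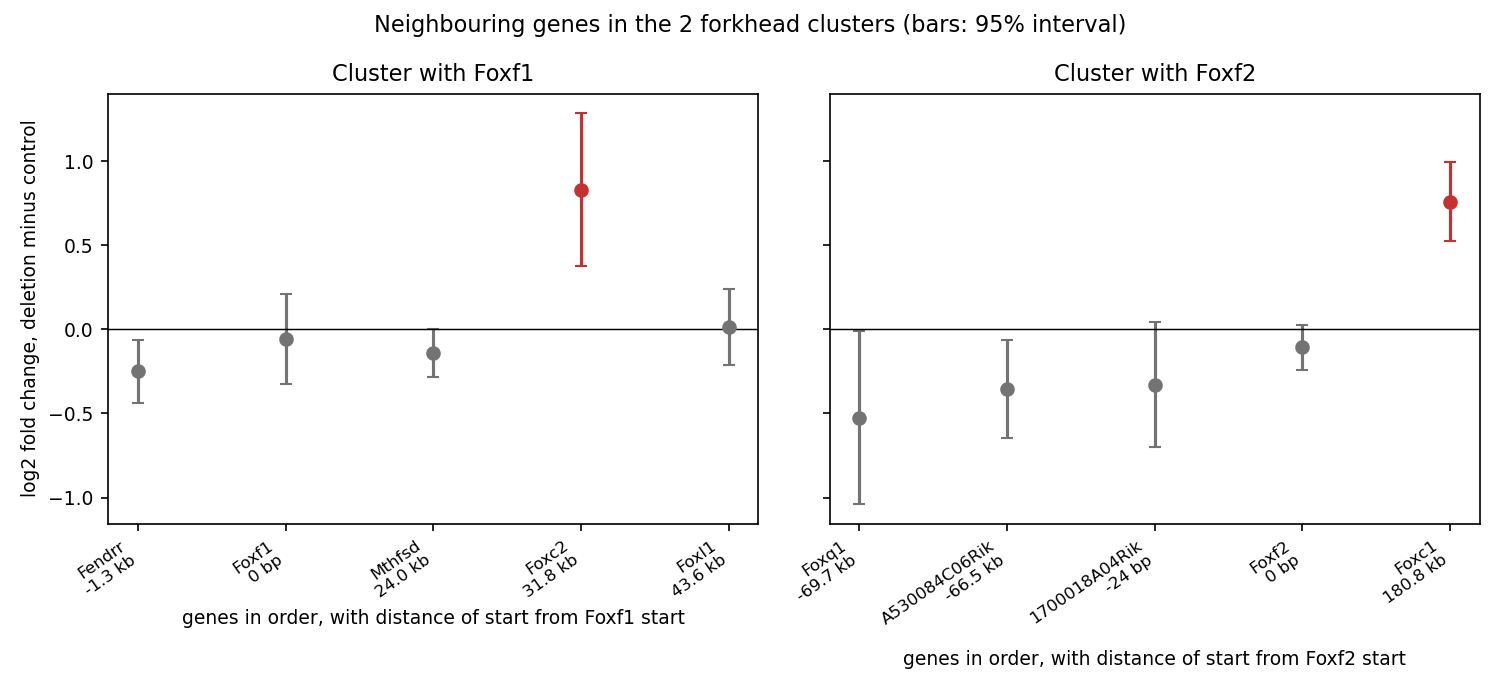
Log2 fold change (deletion minus control) with its 95% interval for genes of the Foxf1 cluster (left) and the Foxf2 cluster (right). Genes are in order of their starts, with the distance from the Foxf1 or Foxf2 start below each name. Tested genes of mean log2 CPM above 0 are shown, except Gm20388, which starts 1173.5 kb from Foxf1. Red marks adjusted p under 0.05: Foxc2 (0.83) and Foxc1 (0.76) passed, and the genes beside them did not.

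Of 17 tested genes that overlap a member or start within 100 kb of its start, 0 rose and 0 fell by edgeR, and none was called by DESeq2 or limma voom. At an unadjusted p under 0.05, 1 was higher and 6 were lower, and the median log2 fold change was -0.15. Such p-values were common over the whole table: Mthfsd, at an unadjusted p of 0.0498 in edgeR, ranked 4336 of 19284 tested genes. Fendrr, the long noncoding RNA that starts 1.3 kb from Foxf1 on the other strand, stood at 45.8, 53.3 and 56.6 CPM without and 46.9, 40.7 and 43.3 CPM with the deletion. Its log2 fold change was -0.25 ± 0.09 (SE), with an adjusted p of 0.107 in edgeR, and deletion 208 lay inside the range of the controls. Its ratio to Foxf1 was not separate between groups (1.05 ± 0.0806 and 1.21 ± 0.0859 Foxf1 counts per Fendrr count, exact permutation p = 0.2).

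Foxd2os, a noncoding RNA that starts 384 bases from Foxd2 on the other strand without overlapping it, was the 1 gene with a higher level among the 7 neighbours at an unadjusted p under 0.05. It stood at 10.7, 7.38 and 7.99 CPM without and 12.6, 12.5 and 9.51 CPM with the deletion (log2 fold change 0.41 ± 0.16, edgeR adjusted p = 0.159). The ratio of Foxd2 to Foxd2os counts was 1.18 ± 0.101 in controls and 1.25 ± 0.051 in deletion libraries, so the pair kept nearly the same proportion in all 6 libraries. Foxd2 and Foxd2os were highest in 212 among controls and lowest in 221 among deletion libraries. The other genes near Foxd2 were Stil (log2 fold change -0.17), Cmpk1 (-0.15) and 9130410C08Rik (0.33).

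Around Foxf2, the forkhead gene Foxq1 was at a log2 fold change of -0.52 (adjusted p = 0.214 in edgeR). The noncoding 1700018A04Rik, which starts 24 bases from Foxf2 on the other strand, was at -0.33 (edgeR adjusted p = 0.285). A530084C06Rik was at -0.35 and Gm11377 at -0.20. In the Foxf1 cluster, Mthfsd, between Foxf1 and Foxc2, was at -0.14 (edgeR adjusted p = 0.222). Gm20388, a gene model that spans all 3 members there on their own strand, was at -0.04. Near Foxd1, Btf3 (-0.05), Utp15 (0.05), Ankra2 (-0.13), Gm9828 (-0.36), Gm2445 (-0.76) and 2310005E17Rik (0.41) also did not pass. Groups of Mthfsd, Stil, Cmpk1, Ankra2, A530084C06Rik and 1700018A04Rik did not overlap, each lower in the deletion libraries, as were 13.5% of all tested genes.

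RefSeq promoter windows (GRCm38.p6) were matched for 4 members: Foxc1, Foxd1 and Foxd2, which rose, and Foxf2, which did not pass. The 250 bases before each start are printed 5′ to 3′ on the gene's strand, so that the promoters of members that moved together can be read beside that of Foxf2. Capitals mark matches to GGGCGG (GC box) or CCAAT on either strand. The windows are Foxc1 at chr13:31806396-31806645 (plus), Foxd1 at chr13:98353995-98354244 (plus), Foxd2 at chr4:114908899-114909148 (minus) and Foxf2 at chr13:31625566-31625815 (plus).
Foxc1: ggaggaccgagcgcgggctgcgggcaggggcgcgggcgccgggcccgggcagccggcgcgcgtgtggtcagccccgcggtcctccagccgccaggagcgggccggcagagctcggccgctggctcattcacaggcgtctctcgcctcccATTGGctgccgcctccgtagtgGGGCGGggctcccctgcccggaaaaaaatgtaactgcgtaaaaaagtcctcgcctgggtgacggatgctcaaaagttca
Foxd1: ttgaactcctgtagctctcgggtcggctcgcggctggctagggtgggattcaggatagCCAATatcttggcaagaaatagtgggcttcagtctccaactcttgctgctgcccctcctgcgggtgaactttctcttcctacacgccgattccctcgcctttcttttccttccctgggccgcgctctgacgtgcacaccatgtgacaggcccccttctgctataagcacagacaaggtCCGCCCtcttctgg
Foxd2: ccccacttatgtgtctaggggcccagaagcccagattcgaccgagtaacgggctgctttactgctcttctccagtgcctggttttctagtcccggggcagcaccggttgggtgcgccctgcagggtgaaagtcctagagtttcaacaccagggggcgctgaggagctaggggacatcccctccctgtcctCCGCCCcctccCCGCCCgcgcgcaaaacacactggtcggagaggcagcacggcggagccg
Foxf2: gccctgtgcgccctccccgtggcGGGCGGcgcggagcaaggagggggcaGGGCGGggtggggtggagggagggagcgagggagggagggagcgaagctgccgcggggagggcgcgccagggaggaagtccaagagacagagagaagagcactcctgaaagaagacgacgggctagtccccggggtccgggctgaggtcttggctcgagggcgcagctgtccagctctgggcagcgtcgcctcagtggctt
All 4 windows held a GC box, as did 32.7% of 32851 RefSeq windows of that length. Foxc1 and Foxd1 each held CCAAT once (33.8% of windows). None of the 4 held TATAAA (12.4% of windows), the forkhead core TAAACA (12.0%) or the GLI site GACCACCCA (0.2%), where both strands were searched. GC content was 71.6% for Foxf2, 70.8% for Foxc1, 64.4% for Foxd2 and 57.2% for Foxd1, against a median of 52.4% over all windows. CpG pairs numbered 21, 29, 16 and 12 in the same order, against a median of 6. High GC content was thus shared by members that rose and by Foxf2.

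The rest of the forkhead family was read from a list of 37 other genes, of which 27 were tested. Of these, 3 rose and 2 fell, with a median log2 fold change of -0.08. With the sex covariate, and likewise without controls 212 and 213, 0 rose and 1 fell in edgeR. The 3 that rose are broadly expressed: Foxp1 (62.1 ± 5.26 to 81.3 ± 4.69 CPM, 1.31-fold), Foxp4 (98.7 ± 1.21 to 118.5 ± 4.72 CPM, 1.20-fold) and Foxo4, an insulin-regulated factor encoded on the X chromosome (63.2 ± 2.43 to 77.7 ± 3.11 CPM, 1.23-fold), with adjusted p = 0.00856 to 0.0102 in edgeR. The 2 that fell, named after their values were seen, were Foxj1, the regulator of motile cilia, and Foxn1, a factor of thymic and skin epithelium. Foxj1 went from 43.4, 45.1 and 22.5 CPM without to 10.9, 9.77 and 7.77 CPM with the deletion, and Foxn1 from 1.01 ± 0.055 to 0.340 ± 0.0525 CPM. Foxd3, the neural crest and glial relative of Foxd1 and Foxd2, was at 2.55 ± 0.236 and 3.21 ± 0.294 CPM and did not pass (log2 fold change 0.33, edgeR adjusted p = 0.309). Every deletion library was above every control for Foxd3, as for 14.1% of tested genes.

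**Figure D3:**
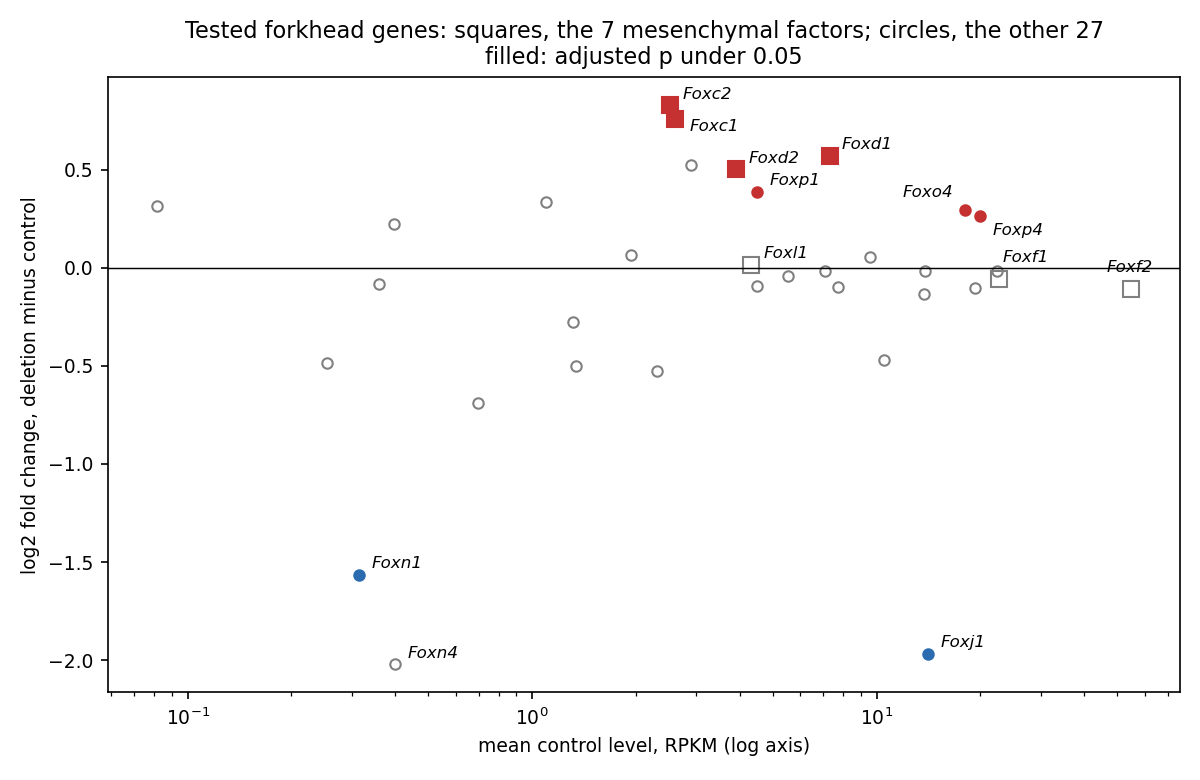
Log2 fold change (deletion minus control) against mean control level per length (RPKM, log axis) for the 34 forkhead genes tested. Squares are the 7 mesenchymal factors and circles the other 27; filled symbols passed at adjusted p under 0.05 (red higher, blue lower). Foxf2 lies farthest right at 54.8 RPKM and near 0, and Foxc1, Foxc2, Foxd1 and Foxd2 lie above the family's median.

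Foxf1, Foxf2 and Foxl1 respond to Hedgehog signalling in other settings, so the pathway's genes were read beside them. Of 15 genes, all tested, 2 rose and 2 fell, with a median log2 fold change of 0.05. With the sex covariate 1 rose and 1 fell (median -0.01), and without controls 212 and 213 0 rose and 1 fell. With all 6 libraries, the co-receptors Cdon and Boc rose 1.24-fold and 1.16-fold. Hhip, a Hedgehog-binding antagonist and target, fell 1.43-fold, from 64.7 ± 2.27 to 45.3 ± 8.05 CPM. Gli1, the transcription factor most often read as a target, named after its value was seen, stood at 137.2, 142.6 and 167.9 CPM without and 124.2, 123.0 and 123.7 CPM with the deletion (1.21-fold lower, adjusted p = 0.0441 in edgeR). The ligand Shh (11.8, 19.5 and 21.6 CPM without, 11.8, 13.2 and 12.7 CPM with the deletion) and the receptor gene Ptch1 (log2 fold change -0.13) did not pass.

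Among 15 genes that work with forkhead factors in the palate, 1 rose and 2 fell (median log2 fold change -0.02). None passed in edgeR with the sex covariate (median 0.07) or without controls 212 and 213 (median 0.08). Fgf9 rose 1.40-fold, from 6.32 ± 0.598 to 8.84 ± 0.483 CPM. Wnt5a fell by 0.29 on the log2 scale, from 155.3 ± 13 to 127.2 ± 3.63 CPM, and Fgfr2 fell 1.20-fold, from 177.8 ± 8.46 to 148.3 ± 10.2 CPM. Fgf18, which Foxf1 and Foxf2 are known to restrain in palatal mesenchyme, stood at 6.22, 6.45 and 6.71 CPM without and 9.87, 8.50 and 7.64 CPM with the deletion. Every deletion library was above every control, and it did not pass (log2 fold change 0.43, with an adjusted p of 0.0787 in edgeR). Of the factors that mark the posterior palate, 1 of 7 rose (Barx1, 190.4 ± 15 to 258.8 ± 7.04 CPM), and 0 of 7 passed with the sex covariate or without controls 212 and 213. Msx1, which is known from the anterior shelf, ranged from 51.7 to 178.2 CPM without and from 61.1 to 188.2 CPM with the deletion, a spread that none of the 7 members showed.

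Markers of several cell types moved with the same groups. Of 7 cartilage markers 3 rose (Matn1, Col2a1 and Sox9) and 0 fell, and their summed level was 576.7 to 779.5 CPM across controls against 949.1 to 1048 CPM across deletion libraries. Within controls 212, 213 and 220 that sum was 779.5, 692.5 and 576.7 CPM. Of 10 skeletal muscle markers 6 rose and 0 fell (491.5 to 540.3 and 846.1 to 1390 CPM summed), and of 7 glial markers 2 rose (74.5 to 79.8 and 87.9 to 118.6 CPM). Of 10 epithelial markers 4 fell (1215 to 1259 and 750.1 to 1001 CPM). By DESeq2, 6 cartilage, 9 muscle and 4 glial markers were higher and 5 epithelial markers lower, where 11.5% of tested genes passed. By limma voom these counts were 5, 9, 2 and 5, where 6.07% of tested genes passed. The glial list includes Foxd3. In controls 212, 213 and 220 the muscle sum was 527.8, 491.5 and 540.3 CPM. The glial and epithelial sums were highest in 213 and lowest in 220. With the sex covariate the calls were 2 for cartilage, 3 for muscle, 0 for glia and 2 for epithelium, and without controls 212 and 213 they were 5, 1, 0 and 1. The 6 bone markers tested summed to 984.6 to 1384 CPM across controls against 259.1 to 466.5 CPM across deletion libraries, with 0 called by edgeR, 5 at an unadjusted p under 0.05, 5 lower by DESeq2 and 3 by limma voom. As background for unadjusted counts, an edgeR p of 0.0498 (that of Shh) ranked 4335 of 19284 tested genes.

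For the other types the sums overlapped between groups, except the mesenchymal sum, which was lower in each deletion library than in each control. Endothelial markers, which matter here because Foxf1, Foxc1 and Foxc2 are also known from vessels, summed to 469.2 to 495.1 CPM across controls against 430.4 to 470.9 CPM across deletion libraries. None of the 10 passed in edgeR (6 at an unadjusted p under 0.05, 2 higher and 4 lower, 1 lower by DESeq2, 0 by limma voom). The unadjusted counts here have the same background, with an edgeR p of 0.0498 at rank 4335 of 19284 tested genes. Of 10 pericyte and smooth muscle markers 1 rose (Acta2) and 1 fell (Tagln), with sums of 616.5 to 666.5 and 632.7 to 715.5 CPM. Of 11 mesenchymal markers 0 passed in edgeR (4 at an unadjusted p under 0.05, 2 higher and 1 lower by DESeq2, 1 lower by limma voom), and their sum, most of it collagen, was 8146 to 9581 CPM across controls against 7087 to 8025 CPM across deletion libraries. Red cell and macrophage lists (6 and 7 genes) had 0 called in edgeR, with 0 and 1 at an unadjusted p under 0.05 and 0 and 1 lower by DESeq2. No marker of any list was at 0 in all libraries. The part of these cell types in the members' values was not tested.

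The tested genes whose pattern over the 6 libraries was most like each member, by the smallest root mean square difference of centred log2 CPM among 13016 named genes, were as follows. For Foxc1 they were Smoc1 (0.05), Tspan8 (0.08) and Pknox2 (0.08), for Foxc2 Hist3h2ba (0.11), Tcap (0.11) and Rflna (0.13), for Foxd1 Shisa9 (0.06), Tceal6 (0.06) and Tekt2 (0.09), and for Foxd2 Pkia (0.06), Pde8b (0.06) and Col14a1 (0.06). Smoc1, a secreted matricellular protein, stood at 12.2, 9.46 and 9.46 CPM without and 15.4, 17.4 and 17.7 CPM with the deletion. For Foxf1 they were Neurl3 (0.02), Abi2 (0.04) and Chst15 (0.04), for Foxf2 Rbck1, Lgals8 and Enkd1 (0.02 to 0.03) and for Foxl1 they included Rps6ka2 and Cmc2 (0.02 each). The differences were smaller for Foxf2 and Foxl1 in part because these genes themselves departed little from their means (root mean square 0.09 and 0.08, against 0.49 for Foxc2).

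**Figure D4:**
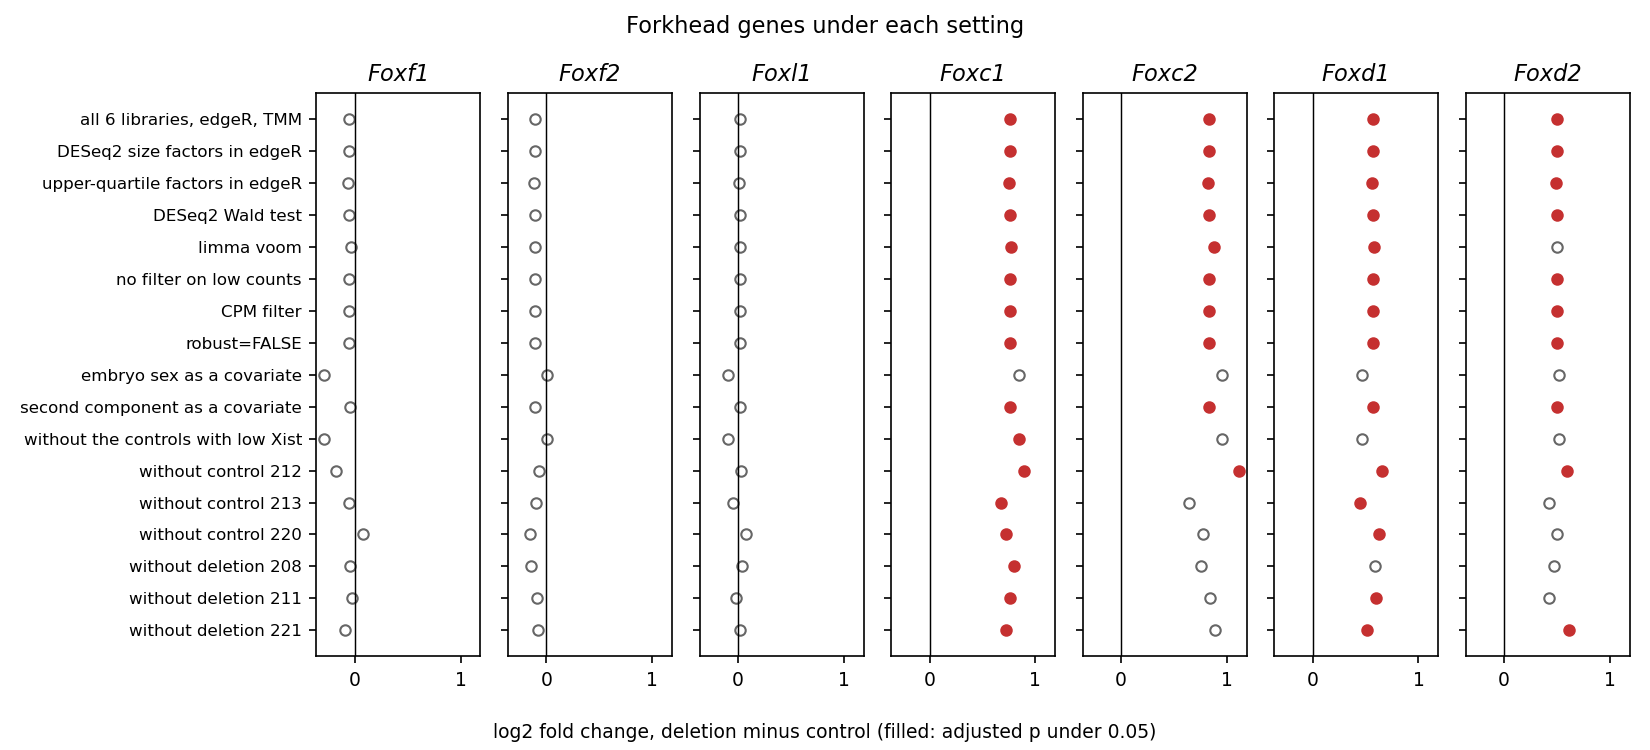
Log2 fold change (deletion minus control) of each forkhead gene under the main analysis (top line) and 16 alternatives; filled red points passed at adjusted p under 0.05 and open points did not. Foxc1, Foxc2, Foxd1 and Foxd2 stay above 0 under all 16, from 0.42 to 1.12, while the number past the threshold varies, and Foxf1, Foxf2 and Foxl1 lie between -0.29 and 0.08 without passing.

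The directions of the 4 that rose were the same in all 16 alternative settings shown in the plot of fold changes by setting, and the calls were not. Foxc1 passed in 15, Foxd1 in 13, and Foxc2 and Foxd2 in 9 each. With embryo sex as a covariate, where the group difference is measured against control 220 alone, 0 of the 7 members and 0.669% of tested genes passed in edgeR. The log2 fold change in that fit was -0.29 for Foxf1 and 0.47 to 0.95 for the 4 that rose. Leaving out controls 212 and 213, which gives the same contrast, 1 member passed, Foxc1 (0.84, edgeR adjusted p = 0.0341), where 0.435% of tested genes passed. The share of tested genes that passed was 4.78% without 212, 1.81% without 213, 7.04% without 220, 2.77% without 208, 3.59% without 211 and 9.45% without 221, and in these fits 4, 2, 2, 1, 2 and 3 members were called. It was 11.5% with DESeq2 (4 members) and 6.07% with limma voom (3 members). With 4 members called in each, it was 7.02% with DESeq2 size factors, 7.3% with upper-quartile factors, 6.29% without the filter, 8.17% with a minimum of 1 CPM, 6.54% without robust fitting and 9.39% with the libraries apart on the second component as a covariate.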

How the data were processed

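The authors made and deposited a single table of estimated counts per gene symbol, not normalized, with 3 control and 3 deletion columns. Column names give the group but not the sample, 0 columns were without a group and 0 rows without a gene name. The build mm10 and the tools STAR 2.4.1d, Partek and CASAVA 1.8.2 are named in the submitters' processing notes. Not given in the sources used here were annotation, strand setting and filters, so reads of a gene and of an opposite-strand gene cannot be separated.

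Counts were rounded, filtered with filterByExpr (minimum count 10, minimum total 15, 19284 genes left) and scaled by TMM. Groups were compared with edgeR 4.0.16's quasi-likelihood F test (robust) in R 4.3.3, with Benjamini-Hochberg adjustment over all tested genes and a threshold of 0.05. Each SE of a gene's log2 fold change is that change, without its sign, divided by the root of F. The SEs of the ratios are from the spread of log2 ratios among libraries instead. Patterns used log2(CPM + 0.5). For deletion against control, simulated counts of 19284 genes were also tested, with 50 genes altered per fold size: 62% of those at 1.5-fold and 76% at 2-fold were found, beside 8 false calls. The simulation altered fewer genes than were called in the data. It held no difference of sex or of the second component, so its rates need not hold for the data. Counting error is 1.39% to 6.39% at each member's lowest count, from 245 counts for Foxc2 upward. The 95% intervals are from the fit. Alternatives were DESeq2 1.42.0, limma 3.58.1 voom, other scalings, filters, covariates and left-out libraries.

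Members and the 15 gene lists were chosen with earlier results of these data known. Named were the 7 members, Prmt1, up to 3 genes of smallest p past the threshold from each list (2 where none passed), every tested neighbour within 100 kb, and the 3 genes most like each member in pattern. Not all genes so named are given values, and a few results, 1 gene list among them, are not reported here. Fgf18, Shh, Ptch1, Msx1, Foxd3, Foxj1, Foxn1, Gli1, Prrx1 and Osr2 were named outside this rule. Coordinates are from GENCODE M21.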

Additional observations from a re-analysis of the deposited data

How the results depend on the processing

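With 1 library left out, 1 to 4 members and 356 to 1872 genes were called, against 4 and 1352 with all 6. The fewest members were called without deletion 208 and the fewest genes without control 213 (356), with 545 without 208 and 711 without 211. With embryo sex as a covariate 0 members and 129 genes were called, and without the 2 controls of low Xist 1 and 89. The DESeq2 Wald test called 2125 genes and the same number of members, 4. Among the 112 fold changes of single members under the alternatives, 87 kept direction and side of the threshold, 18 kept direction and lost the call, and 7 changed sign, all of them in members that did not pass. These were Foxf2 with the sex covariate (0.0017) and without the controls of low Xist (0.0035), Foxl1 in the same settings (-0.10 and -0.10) and without 213 (-0.0494) or 211 (-0.0142), and Foxf1 without 220 (0.078). With 1 library left out, Foxl1 ranged from -0.0494 to 0.0755 and Foxf1 from -0.179 to 0.078. The cause was not tested. No scaling moved the median of all genes by more than 0.01 (log2), and lengths from the longest transcript gave the same RPKM, since each member has 1 transcript. No paired analysis was possible because the table's columns carry none of the replicate numbers of the labels, and the planned fit with a replicate block was not run.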
